A study of Mus musculus with 6 samples.

Results

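The 10 cortical interneuron marker genes described here are Gad1, Gad2, Slc32a1, Pvalb, Sst, Vip, Npy, Lhx6, Cort and Reln. They were taken as the rows with these symbols in a table of RNA-seq counts from the prefrontal cortex (PFC) of mice, and make up 10 of its 22000 gene symbols. All 10 had at least 1 CPM (counts scaled to the size of the library) in every mouse of a group and were tested, among 13185 genes in all. The study asked which genes differ in expression in the PFC after early life stress (ELS), given as social isolation. There were 3 control and 3 ELS mice, all C57BL/6N males taken at 9 weeks, with 1 mRNA library per mouse. ELS mice lived in individual cages with a filter cap from weaning, whereas controls shared a cage without one. Both came from litters of the same mother. Per the paper, mice went through behavioural tests and were kept in their housing until the tissue was taken. Early isolation, isolation at the time of sampling and the type of cage therefore cannot be told apart. Whether the 3 sequenced controls shared 1 cage is not given in the sources used here. P-values therefore measure the spread between these mice, and a shared cage and the group cannot be told apart.

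Interneurons are the local inhibitory neurons of the cortex. They make γ-aminobutyric acid (GABA) from glutamate, load it into synaptic vesicles and release it onto nearby cells. Their main classes are told apart by the calcium-binding protein parvalbumin, which marks fast-spiking cells that contact the soma and axon of pyramidal neurons, by the peptide somatostatin, which marks many cells that contact dendrites, and by the peptide VIP, which marks cells that largely inhibit other interneurons. In whole tissue, fewer cells of a class and less RNA per cell cannot be told apart.

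Sequences of 3 of the members are shown first, because they bear on how the reads can be assigned and on what the peptide genes share. Somatostatin and cortistatin are related peptides, and their genes are alike at the end of the coding sequence. Below are the last 48 coding bases of each, stop codon included, from the GRCm38 genome with the GENCODE annotation, 5′ to 3′. Capitals mark bases that are identical when both are set side by side without gaps.
Sst: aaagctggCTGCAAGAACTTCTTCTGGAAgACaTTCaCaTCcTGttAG
Cort: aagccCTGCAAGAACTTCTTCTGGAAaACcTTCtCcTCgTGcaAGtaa
Of 45 aligned bases, 33 were identical (73.3%). The longest run of bases that any transcripts of Sst and Cort shared was 21 bases, and that of Gad1 and Gad2 was 17 bases. Reads were 151 bases long, so that no full-length read could match both members of either pair.

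The Sst and Vip promoters are the textbook examples of neuropeptide promoters with a cAMP response element (CRE), the site of the activity-regulated factor CREB. The window from 250 bases before to 50 bases after the RefSeq start on GRCm38.p6 was read for each member, and both strands were searched for the CRE (TGACGTCA), its core TGACG, which also lies inside the CRE, and TATAAA. Capitals mark the CRE in Sst, and the core and the 3 TATAAA words in Vip.
Sst, chr16:23890795-23891094, minus strand: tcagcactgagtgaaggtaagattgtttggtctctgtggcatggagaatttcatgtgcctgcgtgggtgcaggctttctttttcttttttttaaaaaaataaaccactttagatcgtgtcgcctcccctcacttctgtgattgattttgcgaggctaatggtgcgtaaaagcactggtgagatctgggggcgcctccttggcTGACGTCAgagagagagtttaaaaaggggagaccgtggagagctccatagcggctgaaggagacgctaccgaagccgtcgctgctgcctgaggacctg
Vip, chr10:5638968-5639267, plus strand: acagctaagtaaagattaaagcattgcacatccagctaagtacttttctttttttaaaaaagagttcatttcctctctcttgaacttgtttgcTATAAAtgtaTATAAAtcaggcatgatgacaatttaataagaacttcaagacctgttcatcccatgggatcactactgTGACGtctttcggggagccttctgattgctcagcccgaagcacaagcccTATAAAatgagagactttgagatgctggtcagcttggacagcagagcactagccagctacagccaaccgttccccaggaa
Of the 13 promoters that the 10 members have in the table, the full CRE was present in 1 (Sst, from -48 to -41 relative to the start), against 1.79% of all 32851 mouse promoters. The core was present in 4 of the 13 (Gad2, Sst, Vip and Cort), against 20.8% of all promoters. TATAAA was present in 3 of the 13 (Gad1, Vip and 1 of the 3 promoters of Lhx6), against 13.6%. A match is a description of the letters only. The 4 members with the core had log2 fold changes between ELS and control mice of 0.07 (Gad2), -0.0016 (Sst), 0.0063 (Vip) and -0.14 (Cort), none of them called.

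No member passed the test for a difference between ELS and control mice. Called genes had an adjusted p under 0.05 over all genes tested and an absolute log2 fold change above 0.3. By edgeR's quasi-likelihood test 0 of 10 members were called, against 0.0152% of all genes (2 of 13185). At an unadjusted p under 0.05 the count was also 0 of 10, against 4.23% of all genes. It was 1 of 10, namely Pvalb, without control 1 (4.16% of all genes), without ELS 3 (2.77%) and with striatal markers as a covariate (7.13%). It was also 1 of 10, namely Lhx6, without control 3 (11.7% of all genes) and without the 2 mice that had the highest level of striatal markers (8.74%). DESeq2 called 0 of 10 members (0.137% of all genes), limma-voom 0 of 10 (0.0152%) and edgeR's likelihood ratio test 0 of 10 (0.212%). In none of the 10 did the CPM values of the 3 ELS mice lie wholly above or below those of the 3 controls, which they did in 8.28% of all genes. The log2 fold change was below 0 in 6 members, against 52.5% of all genes, and its median was -0.0061 over the members and -0.0046 over all genes. The median of the members was 0.0049 with upper-quartile scaling and 0.0052 without those 2 mice. These shares were near the background.

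**Figure D1:**
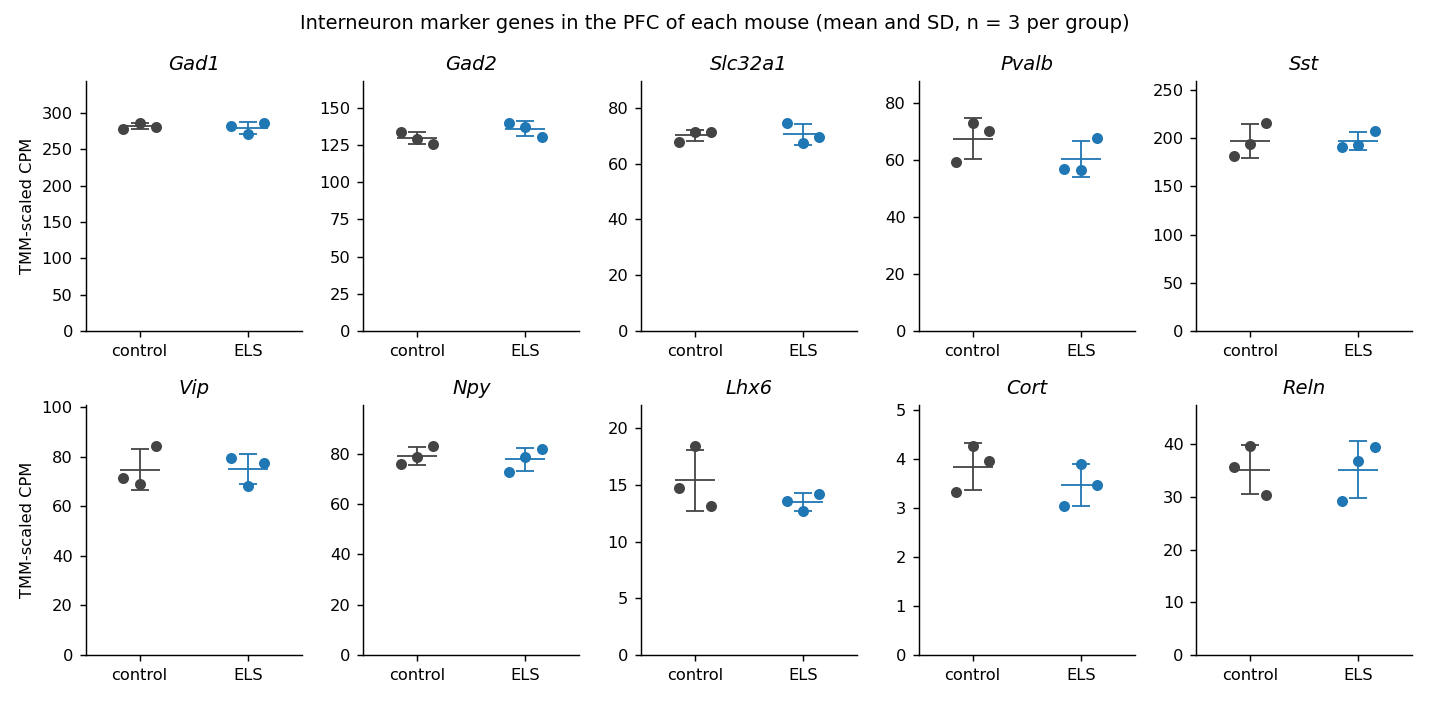
CPM scaled by TMM factors (vertical axes, from 0) of each interneuron marker in the 3 control and the 3 ELS mice, with a panel for each gene. Points are mice, ordered by replicate number, and bars are the mean and SD. In each of the 10 panels the values of the groups overlap, and the means lie closest for Reln (35.2 CPM in both groups) and farthest apart, relative to the level, for Lhx6 (15.4 and 13.5 CPM).

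The GABA genes were measured most precisely. Gad1 (GRCm38 chr2:70553072-70602014, plus strand) codes for GAD67, the enzyme that makes most of the GABA of the cell. Gad1 had 278, 286 and 281 CPM in the 3 control mice and 282, 271 and 286 CPM in the 3 ELS mice. All 6 values lay within a narrow band, with a coefficient of variation (CV) of 2.10% over all mice, where counting error alone gives 1.07%. The log2 fold change of Gad1 was -0.01 ± 0.06 (SE), with an adjusted p of 1.0 by edgeR. Its 95% interval ran from -9.52% to 8.91% of the control level.

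Gad2 (chr2:22622205-22693874, plus strand) codes for GAD65, the form held at nerve terminals. It had 134, 129 and 126 CPM in controls and 140, 137 and 131 CPM in ELS mice. The ELS values of Gad2 were the higher on average (136 ± 4.87 against 129 ± 4.11 CPM, SD, n = 3 each), but the lowest ELS mouse lay below the highest control. Gad2 had a log2 fold change of 0.07 ± 0.06 (SE), with a 95% interval from -4.68% to 15.7% of the control level. It was the only GABA gene of the 3 whose fold change kept its sign under each alternative setting tried, with the value nearest 0 (0.03) without control 3 and ELS 1.

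Slc32a1 (chr2:158610767-158615748, plus strand) codes for VGAT, which loads GABA into vesicles. It had 67.8, 71.3 and 71.2 CPM in controls and 74.6, 67.5 and 69.3 CPM in ELS mice. The highest and the lowest of the 6 values both belonged to ELS mice. The fold change of Slc32a1 was 0.01 ± 0.07 (log2, SE), with a 95% interval from -9.15% to 11.3%. An antisense gene, Gm14205, overlaps 24.9% of its exon length, and since the strand setting of the counting is not given in the sources used here, reads of both cannot be told apart in that stretch.

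Over all 6 mice, the other 7 members had CVs of 4.76% (Npy) to 14.3% (Lhx6), above those of the 3 GABA genes (2.10% to 4.05%). Pvalb (chr15:78191114-78206400, minus strand) codes for parvalbumin. It had 59.3, 73.2 and 70.3 CPM in controls and 57.0, 56.7 and 67.8 CPM in ELS mice. Both groups had a mouse or mice near 57 to 59 CPM and at least 1 near 68 to 73 CPM, so that they overlapped. Controls had a mean Pvalb level of 67.6 ± 7.30 CPM (SD, n = 3) and ELS mice one of 60.5 ± 6.34 CPM (SD, n = 3). The log2 fold change was -0.16 ± 0.09 (SE; unadjusted p = 0.115, adjusted p = 1.0, edgeR). Its 95% interval ran from -22.3% to 3.15% of the control level. Without control 2 the log2 fold change was -0.10, and without control 1 or ELS 3 it was -0.25 (unadjusted p = 0.0216 and 0.0284, adjusted p = 1.0 for both, edgeR).

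Sst (chr16:23889573-23890958, minus strand) codes for somatostatin. It had 181, 194 and 216 CPM in controls and 191, 193 and 207 CPM in ELS mice. The ELS values of Sst lay inside the range of the controls, and the means were 197 CPM in both. Its 95% interval ran from -10.9% to 12.02%.

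Vip (chr10:5639218-5647617, plus strand) codes for vasoactive intestinal peptide. It had 71.4, 68.8 and 84.2 CPM in controls and 79.6, 68.2 and 77.7 CPM in ELS mice. The groups overlapped almost completely, with means of 74.8 ± 8.23 and 75.2 ± 6.09 CPM. The 95% interval of the Vip difference ran from -12.1% to 14.7%.

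Npy (chr6:49822710-49829507, plus strand) codes for neuropeptide Y, made by subsets of somatostatin and neurogliaform cells. It had 76.0, 78.7 and 83.0 CPM in controls and 72.8, 78.8 and 81.8 CPM in ELS mice. Its CV over all 6 mice was 4.76%, and its 95% interval ran from -11.6% to 9.17%. Among the peptide genes, Npy thus had the narrowest spread between mice.

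Cort (chr4:149125034-149126763, minus strand) codes for cortistatin, which binds the somatostatin receptors. It had 3.31, 4.25 and 3.95 CPM in controls and 3.03, 3.89 and 3.47 CPM in ELS mice. Cort was the member with the fewest reads, between 101 and 136 per mouse, and counting error alone gives a CV of 9.37% where 12.5% was seen. Cort had a log2 fold change of -0.14 ± 0.17 (SE), and its 95% interval, from -30.5% to 17.7%, was the widest of the 10. Without control 2 or ELS 1 it was -0.06, without control 1 or ELS 2 it was -0.24, and without both control 3 and ELS 1 it was -0.03.

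Lhx6 (chr2:36081953-36105408, minus strand) codes for a LIM-homeodomain factor of the interneurons born in the medial ganglionic eminence, which include the parvalbumin and somatostatin cells. It had 14.7, 18.4 and 13.1 CPM in controls and 13.6, 12.7 and 14.2 CPM in ELS mice. The ELS mice lay close together near the lowest control, and the control at 18.4 CPM stood highest. The log2 fold change of Lhx6 was -0.19 ± 0.12 (SE; unadjusted p = 0.137, adjusted p = 1.0, edgeR), with a 95% interval from -27.0% to 4.98%. Control mice decided its size: without control 2 the value was -0.05, and without control 3 it was -0.30 (unadjusted p = 0.0170, adjusted p = 0.332, edgeR).

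Reln (chr5:21884454-22344702, minus strand) codes for reelin, an extracellular glycoprotein secreted by layer 1 and other interneurons of the adult cortex. It had 35.6, 39.6 and 30.4 CPM in controls and 29.2, 36.8 and 39.5 CPM in ELS mice. Each group held low and high mice, and the mean was 35.2 CPM in both. The CV over all mice was 12.7%, where counting error gives 3.01%, and the 95% interval ran from -16.2% to 19.3%.

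**Figure D2:**
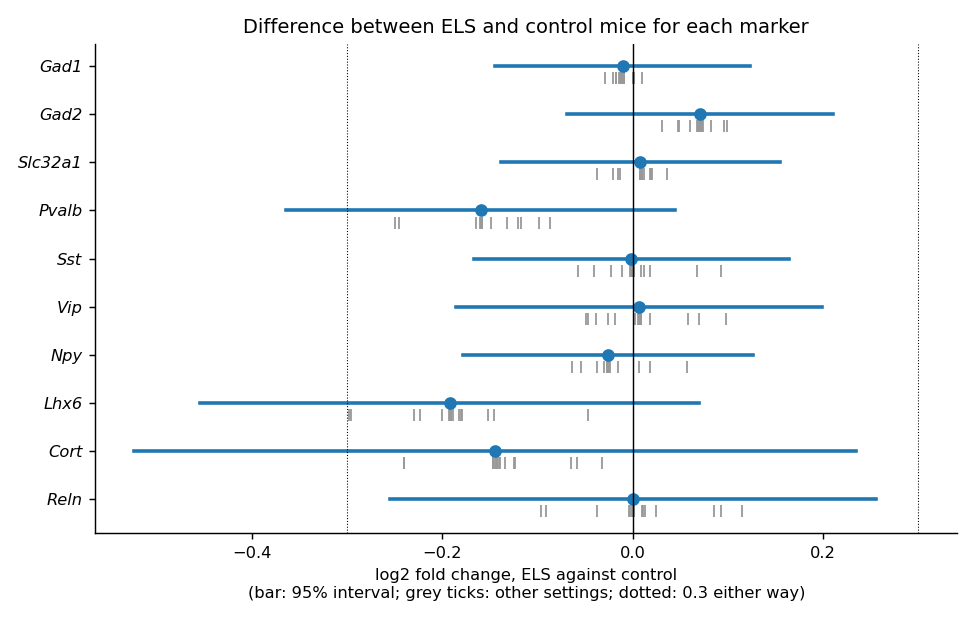
Log2 fold change of ELS against control mice for each marker (horizontal axis), with points for the edgeR estimate, bars for its 95% interval, grey ticks for the same value under the other settings, and dotted lines at 0.3 either way. Each of the 10 bars crosses 0, and the estimates of Lhx6 (-0.19), Pvalb (-0.16) and Cort (-0.14) lie farthest to the left.

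Ratios between members compare genes within the same library, and 5 of them, chosen after the values were seen, were tested by an exact two-sided permutation test whose smallest p with 3 against 3 mice is 0.1. The ratio of Pvalb to Sst counts was 0.327, 0.377 and 0.326 in controls and 0.298, 0.294 and 0.327 in ELS mice. The highest ELS mouse exceeded 2 of the 3 controls, and the mean log2 difference was -0.16 (exact permutation p = 0.3, Benjamini-Hochberg 0.5). The ratio of Pvalb to Gad2 was 0.443, 0.568 and 0.559 in controls and 0.407, 0.413 and 0.520 in ELS mice (log2 difference -0.23, exact permutation p = 0.2, Benjamini-Hochberg 0.5). The ratio of Gad1 to Gad2 was 2.07, 2.22 and 2.24 in controls and 2.01, 1.97 and 2.19 in ELS mice (log2 difference -0.08, exact permutation p = 0.2, Benjamini-Hochberg 0.5). The ratio of Pvalb to Vip differed by -0.17 on the log2 scale and that of Sst to Vip by -0.01 (exact permutation p = 0.5 and 1, Benjamini-Hochberg 0.625 and 1). In each of the 5 ratios the groups overlapped.

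The members spanned a wide range of levels. Per kilobase (kb) of the main transcript, averaged over the 6 mice, Sst was highest at 273 ± 17.2 CPM per kb (SD, n = 6). It was followed by Npy at 139 ± 6.61 and Gad1 at 83.6 ± 1.75 CPM per kb. Sst thus stood at the 98.6th percentile, Npy at the 96.4th and Gad1 at the 93.3rd of the 12573 tested genes with a length. Pvalb had 65.6 ± 7.42, Vip 49.0 ± 4.23, Slc32a1 25.1 ± 0.953 and Gad2 23.1 ± 0.935 CPM per kb. The lowest 3 were Cort with 5.39 ± 0.672, Lhx6 with 4.33 ± 0.618 and Reln with 3.01 ± 0.382 CPM per kb. Of neighbours in this order, the values of Slc32a1 and Gad2 overlapped between mice, as did those of Cort and Lhx6, and no others did. The order depends on the length used: per kb of all merged exons, Pvalb (61.5) stood above Gad1 (36.7), and Vip (22.05) came after Slc32a1 (25.1) and Gad2 (22.6).

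**Figure D3:**
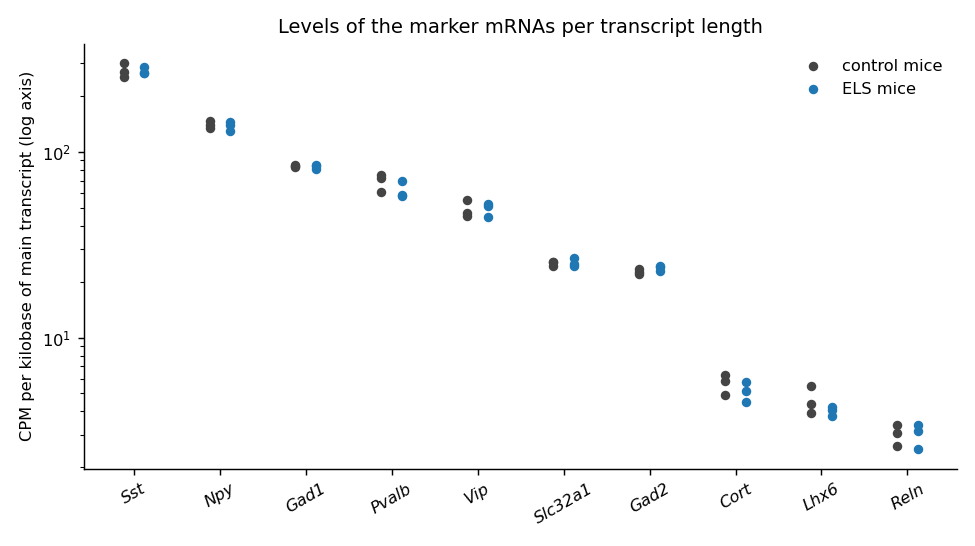
CPM per kilobase of main transcript (vertical log axis) of each marker in each control and ELS mouse, ordered from the highest to the lowest mean. The points fall from 273 CPM per kb for Sst to 3.01 for Reln, and control and ELS mice lie on top of each other for each gene.

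Other genes were described from 12 lists with 101 tested genes, 0 of which were called by edgeR's quasi-likelihood test. Of these lists 8 hold genes of interneurons and of their signalling partners, and 4 hold markers of other cells. How far the listed genes are also expressed by cells outside their class was not tested. Over all 13185 genes tested, 6269 had a log2 fold change above 0 and 6916 had one below 0. The lists and their genes were chosen with earlier results of these data known. Among 6 genes of GABA uptake, supply and breakdown, 5 had a log2 fold change below 0, with a median of -0.04, which turned to 0.0081 without ELS 1, and 0 had an unadjusted p under 0.05. The gene with the smallest p and the largest fold change was Slc6a13, which codes for the GABA transporter GAT2, with 7.85 ± 1.02 CPM in controls and 9.50 ± 1.71 CPM in ELS mice (log2 fold change 0.27 ± 0.15, SE). Without ELS 1 it was 0.12, without control 3 it was 0.17, and without both, the mice of highest striatal marker level, it was 0.02.

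Among 14 tested transcription factors of interneuron lineages, 8 lay above 0 and 6 below, with a median of 0.0061 that was below 0 under 4 of the alternatives. Sp8, a zinc-finger factor of interneurons from the caudal ganglionic eminence, had the smallest p and the largest fold change. It had 1.80 ± 0.346 CPM in controls and 2.71 ± 0.397 CPM in ELS mice (log2 fold change 0.58 ± 0.22, SE; unadjusted p = 0.0187, adjusted p = 1.0, edgeR). The 3 ELS mice lay above the 3 controls, as in 8.28% of all genes in one or the other direction. Among the olfactory bulb markers described below, 3 of 4 tested also had a fold change above 0, and the bulb's part in the Sp8 value was not tested.

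Of 9 other genes of parvalbumin cells, 8 had a log2 fold change below 0, against 52.5% of all genes. The median was -0.07, and it stayed below 0 under all 17 alternatives (-0.15 to -0.06), although it was -0.12 or lower without any 1 mouse but control 1. The markers of excitatory neurons, described below, had 6 of 8 genes below 0 and a median of -0.06, which also stayed below 0 under all 17 alternatives, and whether the lists differ was not tested. The lowest p was that of Cox6a2, a subunit of mitochondrial cytochrome c oxidase, with 5.71 ± 0.886 CPM in controls and 4.09 ± 0.592 CPM in ELS mice (log2 fold change -0.48 ± 0.17, SE; unadjusted p = 0.0142, adjusted p = 1.0, edgeR). Its exons overlap those of Itgad on the other strand over 10.3% of their length. Syt2, a calcium sensor of fast transmitter release that was named after its values were seen, had 51.8 ± 12.4 and 40.6 ± 5.52 CPM (log2 fold change -0.35 ± 0.14, SE; unadjusted p = 0.0303, adjusted p = 1.0, edgeR). The control values of Syt2 were 45.0, 66.1 and 44.3 CPM, and without control 2 the log2 fold change was -0.13 (unadjusted p = 0.243, edgeR). Neither gene was called, and in both the groups overlapped.

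Of 7 tested genes of somatostatin cells, 6 lay above 0 and 1 below (of all genes, 6269 and 6916). The list's median of 0.03 turned to -0.02 without control 3. The one below was Hpse, which codes for heparanase, with 2.03 ± 0.131 CPM in controls and 1.32 ± 0.234 CPM in ELS mice (log2 fold change -0.62 ± 0.22, SE; unadjusted p = 0.0152, adjusted p = 1.0, edgeR). The values of its 3 ELS mice lay below those of the 3 controls, and groups lay apart in either direction in 8.28% of all genes. Calb1, which codes for calbindin and was named after its values were seen, had 167 ± 13.2 and 189 ± 9.98 CPM (log2 fold change 0.18 ± 0.08, SE; unadjusted p = 0.0352, adjusted p = 1.0, edgeR). Without control 3 and ELS 1 the value of Calb1 was 0.28 (unadjusted p = 0.000353, adjusted p = 0.0934, edgeR).

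Of 8 tested genes of VIP and CCK cells, 7 lay above 0, against 6269 of 13185 of all genes. The list's median was 0.21, and it stayed above 0 under all 17 alternatives, from 0.12 without control 2 to 0.32 without control 1. Of this list, Cck (394 CPM in controls) stood far above Vip (74.8 CPM), and the part of other cells in its level was not tested. The olfactory bulb markers, described below, had a median of 0.28 in the same direction, and their part in the values of this list was not tested. Sncg, which codes for γ-synuclein, had 1.55 ± 0.271 CPM in controls and 2.28 ± 0.193 CPM in ELS mice (log2 fold change 0.56 ± 0.21, SE; unadjusted p = 0.0227, adjusted p = 1.0, edgeR). Its groups did not overlap, as in 8.28% of all genes. Adarb2, an RNA-editing enzyme relative and a marker of interneurons from the caudal ganglionic eminence, was named after its values were seen. It had 10.8 ± 1.30 and 13.0 ± 1.58 CPM (log2 fold change 0.27 ± 0.12, SE; unadjusted p = 0.0490, adjusted p = 1.0, edgeR). Vip itself, with a log2 fold change of 0.01, did not share the position of this list's median.

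Of 6 genes of neurogliaform and layer 1 cells, 5 lay above 0, with a median of 0.08. Of all genes, 6269 of 13185 lay above 0. Ndnf, a secreted factor that marks interneurons of layer 1, had the smallest p of any gene in the 12 lists. It had 14.5, 12.4 and 10.4 CPM in controls and 20.5, 20.99 and 14.0 CPM in ELS mice. ELS 1 and ELS 2 stood above all controls, whereas ELS 3 lay within their range. The summed level of the olfactory bulb markers, given below, was also above all controls in ELS 1 and ELS 2 and not in ELS 3, and their part in the Ndnf value was not tested. The log2 fold change of Ndnf was 0.57 ± 0.15 (SE; unadjusted p = 0.00280, adjusted p = 0.714, edgeR), and it ranged from 0.39 to 0.74 over the alternatives.

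The receptors for the members' peptides included 8 tested genes, 3 above 0 and 5 below, with a median of -0.03 that turned to 0.03 without control 1. Sstr2, a receptor of both somatostatin and cortistatin, had 27.6 ± 1.16 CPM in controls and 24.2 ± 0.911 CPM in ELS mice (log2 fold change -0.19 ± 0.08, SE; unadjusted p = 0.0275, adjusted p = 1.0, edgeR). Its groups did not overlap, as in 8.28% of all genes. Npy2r, a presynaptic receptor of neuropeptide Y, had 2.88 ± 0.614 and 3.96 ± 0.723 CPM (log2 fold change 0.47 ± 0.21, SE; unadjusted p = 0.0433, adjusted p = 1.0, edgeR). In the reelin pathway, with its receptors, their adaptor and the kinase Fyn, 3 of 4 genes lay above 0, with a median of 0.02 that turned to -0.01 without ELS 2. The gene farthest from 0 was Lrp8, the reelin receptor ApoER2, with 69.4 ± 9.30 and 62.6 ± 5.16 CPM (log2 fold change -0.15, which was -0.07 without control 2, -0.25 without control 3 and -0.08 with the striatal covariate).

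**Figure D4:**
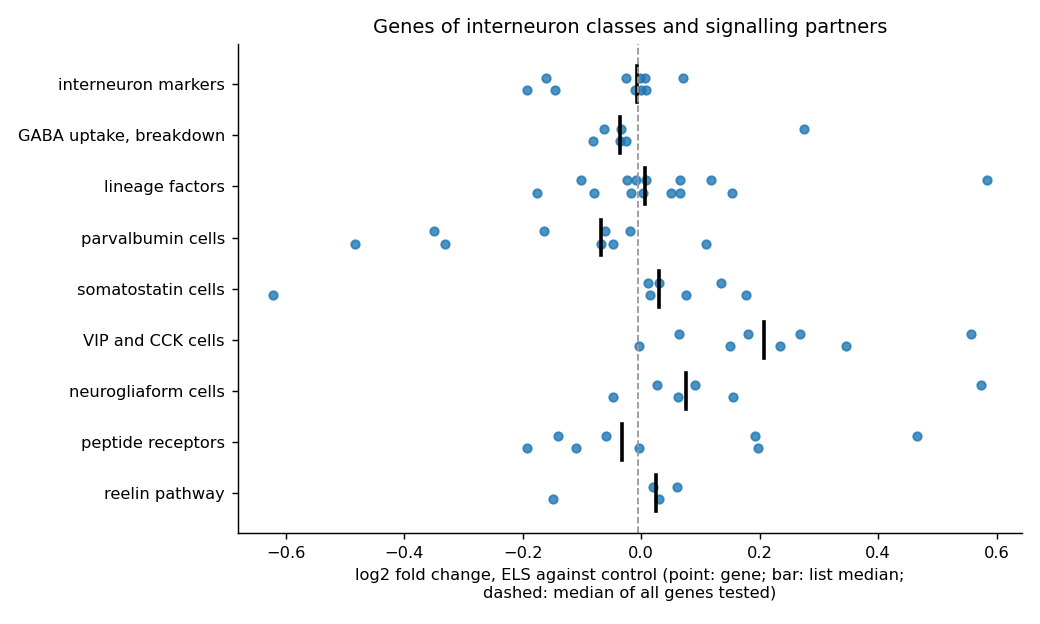
Log2 fold change of ELS against control mice (horizontal axis) for each tested gene of the interneuron markers and 8 lists of related genes, with a black bar at each list's median and a dashed line at the median of all genes tested (-0.0046). Points of the VIP and CCK list lie mostly to the right (median 0.21) and those of the parvalbumin list mostly to the left (median -0.07), and none of the points is a called gene by edgeR.

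The tissue was checked with markers of other cells. All 8 markers of cortical excitatory neurons were tested, with a summed level between 7428 and 8137 CPM in controls and between 6995 and 8080 CPM in ELS mice. Their median log2 fold change was -0.06, but -0.01 without ELS 1 and -0.11 without control 3. Neurod2 lay farthest from 0 (-0.12), with a range of -0.19 to -0.07 when 1 mouse was left out. The 16 markers of astrocytes, oligodendrocytes, microglia and endothelial cells had 8 genes on each side of 0 and summed levels of 6559 to 8434 and 6596 to 7515 CPM, with Cldn5, a tight-junction protein of endothelial cells, lowest in p (32.4 ± 4.28 against 40.2 ± 3.93 CPM, log2 fold change 0.31, and 0.17 without control 3 and ELS 1; adjusted p = 0.970 with all mice, edgeR). Of 5 olfactory bulb markers, 4 were tested, 3 above 0 and 1 below, with the largest fold change in Cdhr1 (0.44, and 0.26 without ELS 1). Their median was 0.28, the highest of the 12 lists, and it stayed above 0 under all 17 alternatives (0.18 to 0.33). Summed over the 4, the level was 6.43, 7.90 and 8.07 CPM in controls and 10.8, 9.32 and 6.95 CPM in ELS mice, so that ELS 1 and ELS 2 stood above all controls and ELS 3 did not. The fifth marker, Eomes, was under the minimum level, with 1, 2 and 3 reads in controls and 16, 6 and 7 reads in ELS mice, which did not overlap. None of the 4 tested markers was at 0 in any mouse. The exons of Doc2g, whose fold change of 0.35 is 1 of the 2 that set the median, are shared over 63.5% of their length with Gm49405 on the same strand, so its reads are uncertain.

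Markers of striatal projection neurons, a GABA cell type of the neighbouring region, differed between mice within both groups. Of 12 such markers 11 were tested, 9 above 0 and 2 below, and 0 of the 11 was at 0 in any mouse. Drd1 was not found under this symbol among the counts and was not analysed here. Their median was 0.19, but -0.13 without ELS 1 and 0.54 without control 3. Gpr6 (log2 fold change 0.48) had the smallest p and Serpina9 (0.84) the largest fold change, and both were 0.03 without ELS 1. Without control 3 they were 1.01 (unadjusted p = 0.00622) and 2.505 (unadjusted p = 0.000357), with adjusted p of 0.237 and 0.0925 by edgeR. Summed over the 11, the level was 392, 423 and 611 CPM in controls and 588, 427 and 459 CPM in ELS mice. Control 3 and ELS 1 were thus the highest, with 1 such mouse in each group. Of the remaining mice, controls 1 and 2 had lower sums than ELS 2 and 3. For Adora2a the values were 5.04 and 5.17 against 6.98 and 10.1 CPM. For Serpina9 they were 0.455 and 0.390 against 1.23 and 1.55 CPM. Drd2, Ppp1r1b, Rarb and Scn4b overlapped between the groups in these mice. Leaving out control 3 and ELS 1 thus did not make the striatal level alike in both groups. Control 3 and ELS 1 had the 2 highest values of Vip (84.2 and 79.6 CPM) and the 2 lowest of Reln (30.4 and 29.2 CPM). The striatal covariate was the mean log2(CPM + 1) of the 11 markers, not their summed CPM. With it, the log2 fold change was -0.05 for Vip and 0.09 for Reln, and without both control 3 and ELS 1 it was 0.06 and 0.02. Pvalb had -0.16 with the covariate (unadjusted p = 0.0491, adjusted p = 0.697, edgeR) and -0.09 without both mice. Lhx6 had -0.15 with the covariate and -0.30 without both mice (unadjusted p = 0.0280, adjusted p = 0.492, edgeR). The part of striatal tissue in the members' values was not tested beyond these fits.

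**Figure D5:**
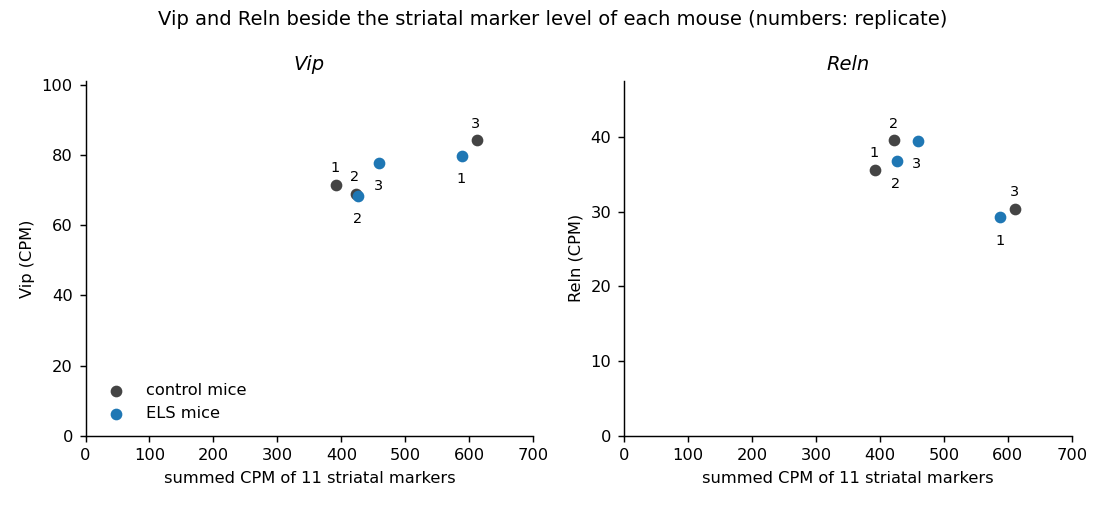
CPM of Vip (left) and Reln (right), each from 0, against the summed CPM of 11 striatal markers in each mouse, with numbers for the replicate and colours for the group. Control 3 and ELS 1 lie apart at 611 and 588 CPM, with the highest Vip and the lowest Reln values, and the other 4 mice lie between 392 and 459 CPM.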

How the data were processed

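PFC mRNA of 6 mice, 3 per group, was read as paired ends of 151 bases. The authors deposited raw counts per gene symbol, neither normalized nor pooled, in 1 table. Per the submitters' processing notes, STAR 2.7.1a, HTSeq 0.9.1 and mm10 were used, whereas the study's methods give another STAR version and another stranded library kit than the labels. The annotation release and strand setting of the counting are not given in the sources used here. Columns of ELS mice carry an abbreviation of social isolation, and this term and their number tied them to the samples.

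The test was the quasi-likelihood F test of edgeR 4.0.16 (R 4.3.3) with TMM scaling and condition as the sole factor. It covered the 13185 genes that reached 1 CPM in every mouse of at least 1 group, and Benjamini-Hochberg adjustment was over all of them. CPM values are TMM-scaled, and SEs and 95% intervals come from the same fit. Total counts were 28405795 to 35241743 per mouse, of which the 10 members took 0.0913% to 0.0980%. Counting CVs cover counting error only. Libraries of the same group differed beyond sampling noise (lowest chi-square per degree of freedom 6.70), so each was 1 replicate. Alternatives were DESeq2 1.42.0, limma-voom (limma 3.58.1), a likelihood ratio test, other scalings and filters, counts thinned to the smallest library, no fold threshold, a replicate block, a striatal covariate, and leaving out each mouse. Leaving out both mice of high striatal level was added after seeing the data. The tests were tested on simulated data.

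The members and lists were chosen with earlier results of these data known. Named genes are all members and, of each other list, the called genes, the gene with the smallest p and the gene with the largest fold change. Syt2, Calb1, Adarb2 and the 5 ratios were chosen after their values were seen. For Gad1, Pvalb, Sst and Vip, the 3 genes with the highest Pearson correlation of log2(CPM + 1) were also named. Positions and lengths are from GENCODE M21 on GRCm38 (mm10), in which 89.2% of symbols were found, and the main transcript is the one tagged as principal. Promoters are from RefSeq on GRCm38.p6, with an entry for all 10 members. In the table, 27 symbols had been turned into dates.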

Additional observations from a re-analysis of the deposited data

How the results depend on the processing

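No member was called under any alternative. Gad2, Pvalb, Lhx6 and Cort kept their sign under all 17 alternatives. Leaving out 1 mouse at a time moved Gad2 from 0.0472 to 0.0985, Pvalb from -0.2501 to -0.0985, Lhx6 from -0.2961 to -0.0466 and Cort from -0.2409 to -0.0586 (log2 fold changes throughout). The other 6 members, whose values were near 0, changed sign when 1 mouse was left out: Gad1 ranged from -0.0287 to 0.0098, Npy from -0.0641 to 0.0179, Reln from -0.0965 to 0.1152, Slc32a1 from -0.0371 to 0.036, Sst from -0.0578 to 0.067 and Vip from -0.0496 to 0.0978. Without both mice of high striatal level, an alternative chosen after seeing the data, Npy had 0.0568, Slc32a1 -0.0208 and Sst 0.0927. With the striatal covariate, Slc32a1 had -0.0139 and Vip -0.0468. Upper-quartile scaling gave 0.0007 for Gad1 and 0.0091 for Sst, limma-voom 0.0011 for Sst and -0.0033 for Reln, no filter 0.0005 for Sst, and 1 CPM in every mouse -0.0009 for Reln. The cause of these changes was not tested.

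Of all genes tested, edgeR's quasi-likelihood test called 2, DESeq2 18, the likelihood ratio test 28, the fit with no filter 4, the striatal covariate 30 and the fit without both mice of high striatal level 27. Leaving out 1 mouse gave 1 to 29 called genes, and the 29 came without control 3. Deviations of same-numbered mice from their group means had correlations of -0.16 (replicate 1), 0.26 (replicate 2) and -0.04 (replicate 3). The highest correlation of any pair was that of control 3 with ELS 1 (0.36). With the replicate number as a block 7 genes were called, and Sst had 0.0011 and Reln -0.0039. Counting error was highest for Cort, the member with the fewest reads (counting CV 9.37%). The 17 named genes of the other lists kept their sign under each alternative that gave a value.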

Other observations

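Genes whose level followed a member's most closely over the 6 mice were found by Pearson's r of log2(CPM + 1) over all tested genes. With 6 mice and 13185 genes to choose from, high values of r are given as a description only, and the points share library and tissue piece. For Gad1 they were Dkkl1 (r = 0.99), Fam109a (0.99) and Tor2a (0.99). For Pvalb they were Pms2 (0.99), Rtn2 (0.99) and Kcns1 (0.99), a potassium channel subunit. For Sst they were Lin7b, Cbx8 and Rnf187, with r of 0.9977, 0.9966 and 0.9939. For Vip they were Cct7, Fkbp8 and Rftn2, with r of 0.9969, 0.9949 and 0.9937.

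Listed genes that did not reach 1 CPM in every mouse of at least 1 group were not tested and are given as raw reads per mouse. Nkx2-1, the factor that acts before Lhx6 in the embryonic medial ganglionic eminence, had 0 to 7 reads. Chodl, which marks the long-range somatostatin cells, had 21 to 62 reads, and Chrna2, a nicotinic receptor subunit of some deep somatostatin cells, had 3 to 19. Chat, the acetylcholine-making enzyme of some VIP cells, had 13, 7 and 29 reads in controls and 22, 8 and 5 in ELS mice. Its 2 highest values were those of control 3 and ELS 1, the mice with the highest level of striatal markers, and their part was not tested. Of the receptors, Sstr5 had 1 to 6 and Vipr2 5 to 23 reads. Eomes, a marker of olfactory bulb projection neurons, had 1, 2 and 3 reads in controls and 16, 6 and 7 in ELS mice.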
